A study of Mus musculus with 2 samples.

Results

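The myogenic regulators and satellite cell genes examined here are 10 genes that mark successive stages of skeletal muscle formation: *Pax3*, *Pax7*, *Myf5*, *Cdh15* and *Itga7* for muscle progenitors and satellite cells, *Myod1* for commitment, and *Myog*, *Myf6*, *Tmem8c* and *Chrna1* for differentiation. They were chosen by gene symbol, and since their counts in these libraries had already been seen when the list was made, their values are given as a description. All 10 symbols were found among the 24421 rows of the count table. RNA-Seq data came from 1 chondrocyte library and 1 dermal fibroblast library, both from primary cells of newborn mice. The chondrocytes were freed from rib cartilage with collagenase, after a first digestion had removed soft tissue, and were used within 2 passages. The dermal fibroblasts, the control cells of the study, were freed from dorsal skin with collagenase. No cell sorting, treatment or genetic change is described for either, and no strain, sex or number of animals is given for these libraries. With 1 library per cell type there was no replicate check and no test, so each interval covers counting error only, which for reads without molecular identifiers is a lower limit of the error. In a bulk library, fewer cells of a type and less RNA per cell cannot be told apart.

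Skeletal muscle forms from progenitors that carry the paired-box factors PAX3 and PAX7. In newborn mice PAX7-positive cells settle as satellite cells beneath the basal lamina of the fibre and serve as its stem cells. The basic helix-loop-helix (bHLH) factors MYF5 and MYOD1 commit these cells to the muscle lineage, myogenin (*Myog*) drives their differentiation, and MRF4 (*Myf6*) acts late and in mature fibres. All 4 bHLH factors pair with E proteins and bind the E-box, CANNTG. Myoblasts then leave the cell cycle, fuse through myomaker (*Tmem8c*, named *Mymk* in RefSeq) and assemble acetylcholine receptors and sarcomeres. Neither chondrocytes nor dermal fibroblasts are known as sites of this program.

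The libraries held 18788599 and 17563724 counts. Levels are given as CPM, the count of a gene scaled to the size of its library, and folds are ratios of CPM, with library sizes adjusted by the trimmed mean of M values (TMM). Defining cartilage genes summed to 97369 CPM in chondrocytes and 20.9 CPM in dermal fibroblasts over 7 genes, and *Col2a1* and *Matn1* were at 0 in the latter. Defining dermal genes summed to 6194 and 47885 CPM over 8 genes, of which 7 were over 2-fold higher in dermal fibroblasts and 1 was within 2-fold. The markers of each cell type were thus mostly higher in the library that carries its label. Skeletal muscle contraction genes were present in both libraries, with all 29 genes of the list above 0 in each and a summed level of 2777 CPM in chondrocytes and 2040 CPM in dermal fibroblasts.

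The promoter sequences of *Myog*, *Chrna1* and *Cdh15* are shown because they hold the element that the bHLH members bind upstream of a regulator, a late muscle gene and a satellite cell adhesion gene. RefSeq (GRCm38.p6, the build named mm10) gave a start site window for 5 of the 10 genes, *Pax7*, *Myf5*, *Cdh15*, *Myog* and *Chrna1*. The windows of *Pax7* and *Myf5* fell inside the annotated span of the gene itself and are not shown. Each line is the 250 bases before the annotated start, read toward the gene, with each E-box (CANNTG, which reads the same on both strands) in capitals. The *Myog* window is chr1:134289754-134290003 on the plus strand, that of *Chrna1* chr2:73580339-73580588 on the minus strand and that of *Cdh15* chr8:122848124-122848373 on the plus strand.
Myog: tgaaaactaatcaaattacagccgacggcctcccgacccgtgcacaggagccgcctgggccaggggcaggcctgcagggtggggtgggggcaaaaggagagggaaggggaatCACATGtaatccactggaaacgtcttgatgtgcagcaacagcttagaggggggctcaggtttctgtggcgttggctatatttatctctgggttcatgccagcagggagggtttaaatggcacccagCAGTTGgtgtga
Chrna1: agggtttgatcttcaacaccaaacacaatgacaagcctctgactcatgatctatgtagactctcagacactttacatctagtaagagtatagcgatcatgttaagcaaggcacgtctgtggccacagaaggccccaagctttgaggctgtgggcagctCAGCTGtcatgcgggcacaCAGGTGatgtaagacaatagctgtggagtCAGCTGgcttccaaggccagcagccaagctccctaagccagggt
Cdh15: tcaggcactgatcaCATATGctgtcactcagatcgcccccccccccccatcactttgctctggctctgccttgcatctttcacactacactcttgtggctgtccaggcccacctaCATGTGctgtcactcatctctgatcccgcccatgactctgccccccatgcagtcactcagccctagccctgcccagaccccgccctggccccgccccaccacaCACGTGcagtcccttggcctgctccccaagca

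The *Myog* window held 2 E-boxes, which began 138 and 12 bases before the start. The *Chrna1* window held 3, at 92, 73 and 44 bases, and the *Cdh15* window held 3, at 236, 135 and 32 bases. No E-box was found in the windows of *Pax7* and *Myf5*. E-boxes are common, and of 32851 windows of the same length from RefSeq, 66.2% held at least 1, 31.8% at least 2 and 12.2% at least 3. The form CAGCTG was found 2 times in the *Chrna1* window, at 92 and 44 bases, as in 1.26% of all windows, and in none of the other 4. These matches describe the letters of the windows only.

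Apart from *Pax3*, the 10 genes had a higher level in the chondrocyte library than in the dermal fibroblast library, for *Myf6* within counting error. The fold was largest for the progenitor factors *Pax7* and *Myf5*, while the fusion gene *Tmem8c* lay at nearly the same level in both. Of the 10 genes, 7 were over 2-fold higher in chondrocytes, 1 (*Pax3*) was over 2-fold higher in dermal fibroblasts, and 2 (*Itga7* and *Tmem8c*) were within 2-fold. Among all 14730 genes with at least 10 counts over both libraries, 12.0% were over 2-fold higher in chondrocytes and 16.2% in dermal fibroblasts. For 5 of the 10 the whole 95% Clopper-Pearson counting interval lay above 2-fold, *Pax7*, *Myf5*, *Cdh15*, *Myod1* and *Chrna1*, against 7.00% of all genes. As the genes had been picked with these values known, nothing is read from the difference between these shares. The median log2 fold was 1.75 over the 10 genes and 0.00 over all genes tested. The genes were not equally well counted, since 7 had at least 100 counts in one of the libraries and *Pax3*, *Myf5* and *Myf6* did not.

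**Figure D1:**
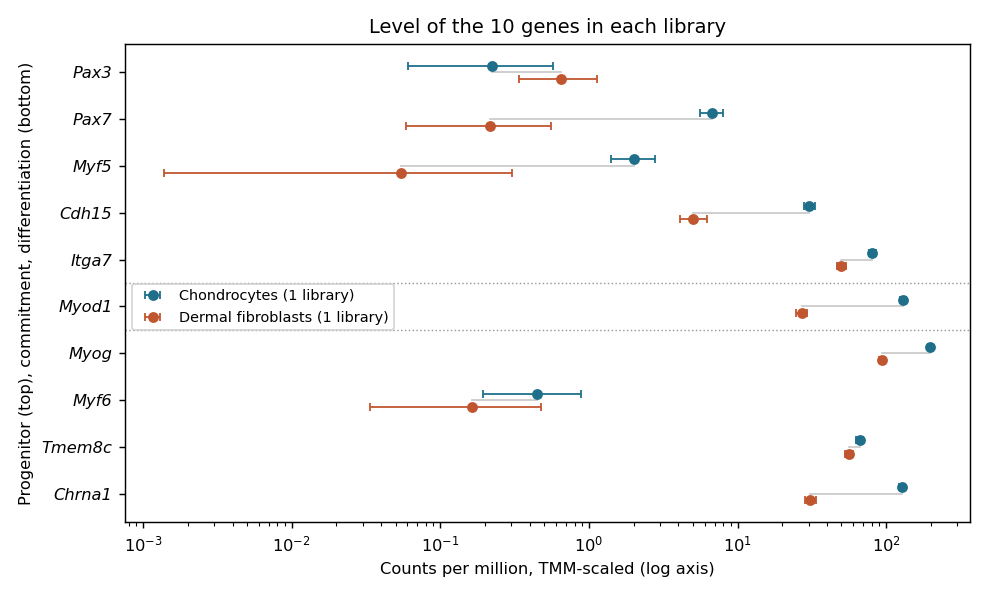
Level of each of the 10 genes in CPM on a log axis, with 95% Poisson counting intervals, for the chondrocyte library and the dermal fibroblast library, 1 library each. *Pax7* stands at 6.69 against 0.217 CPM and *Tmem8c* at 66.4 against 55.8 CPM, and *Pax3* is the only gene whose dermal fibroblast point lies to the right.

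*Pax7* (chromosome 4 of GRCm38, 139737059 to 139833530) encodes the factor that defines satellite cells. It was read 120 times in the chondrocyte library and 4 times in the dermal fibroblast library. Its level was 6.69 against 0.217 CPM, or 30.8-fold higher in chondrocytes, and counting error allowed folds from 11.7 to 115. Of all genes tested, 99.4% had a lower fold. Its paralog *Pax3* (chromosome 1, 78101267 to 78197136) acts in embryonic muscle progenitors and also in the melanocyte and Schwann cell lineages. *Pax3* was read 4 times in chondrocytes and 12 times in dermal fibroblasts, or 0.223 and 0.652 CPM. Its level was 2.92-fold higher in dermal fibroblasts, with an interval of 0.885 to 12.4 that includes equality. Of the reads on both paired-box genes, *Pax7* took 120 of 124 in chondrocytes (96.8%, exact interval 91.9% to 99.1%) and 4 of 16 in dermal fibroblasts (25.0%, 7.27% to 52.4%). The library with few *Pax7* reads was thus the one with more *Pax3* reads. No 75-base stretch of the *Pax3* or *Pax7* transcripts was shared, on the same strand, with a GENCODE vM1 protein-coding transcript of another gene. The same was true of the other 8 genes. Noncoding transcripts, pseudogenes and the opposite strand were not searched. The span of *Pax7* overlaps that of the predicted gene *Gm46873*.

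Markers of melanocytes moved in the direction of *Pax3*. Their summed level was 11.5 CPM in chondrocytes and 81.5 CPM in dermal fibroblasts, 7 of 8 were over 2-fold higher in the latter, and the pigment genes *Dct* and *Tyrp1* had 0 counts in chondrocytes against 238 and 149. Schwann cell markers summed to 195 and 155 CPM, with 4 of 8 over 2-fold higher in dermal fibroblasts and 2 in chondrocytes, of which *S100b*, also a cartilage gene, had 2657 counts against 87. *Sox10*, which stands on both lists, had 25 and 310 counts. The part of these cells in the *Pax3* reads was not tested.

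*Myf5* (chromosome 10, 107482908 to 107486927), which acts first among the bHLH factors, was read 36 times in chondrocytes and once in dermal fibroblasts, or 2.01 and 0.0543 CPM. The ratio was 37.0 with an interval from 6.23 to 1500, so that its size was poorly fixed by 1 read. With counts under 10 set to 10, the fold was 3.70 for *Myf5* and 12.3 for *Pax7*. *Myf6* (107492848 to 107494723), which lies 5920 bp from *Myf5* on the same chromosome, had 8 and 3 counts, or 0.446 and 0.163 CPM, a ratio of 2.74 with an interval from 0.657 to 16.0. A difference in *Myf6* was not detectable at this depth, and its fold was 1.03 with counts under 10 set to 10. *Pax7* and *Myf5* also mark precursors of brown fat, whose markers summed to 53.3 CPM in chondrocytes and 55.1 CPM in dermal fibroblasts, with 4 of 7 over 2-fold higher in the former and 2 in the latter. *Ucp1*, the defining gene of that tissue, had 2 counts and 0. The part of brown fat precursors in the *Pax7* and *Myf5* reads was not tested.

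The surface proteins of satellite cells were read more deeply. *Cdh15* (chromosome 8, 122848374 to 122867397), which encodes M-cadherin, the adhesion molecule between satellite cell and fibre, was read 543 times in chondrocytes and 93 times in dermal fibroblasts. At 30.3 against 5.05 CPM it was 6.0-fold higher in chondrocytes (interval 4.80 to 7.56). *Itga7* (chromosome 10, 128933421 to 128958286), the integrin subunit that joins muscle cells to laminin, had 1442 and 919 counts, 80.4 and 49.9 CPM, and was 1.61-fold higher in chondrocytes (interval 1.48 to 1.75). *Itga7* is not restricted to skeletal muscle, and smooth muscle markers summed to 785 CPM in chondrocytes and 2038 CPM in dermal fibroblasts, with 6 of 8 over 2-fold higher in the latter. The smooth muscle factor gene *Myocd* had 3 and 24 counts. Their part in the *Itga7* reads was not tested. The span of *Itga7* overlaps that of *Mettl7b*, which had 2 and 3 counts, and of the predicted genes *Gm46186* and *Gm25494*.

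*Myod1* (chromosome 7, 46376474 to 46379092) encodes the factor that commits cells to muscle. It had 2328 and 496 counts, or 129.9 and 26.9 CPM, and was 4.82-fold higher in chondrocytes (interval 4.37 to 5.32). It was thus well counted in both libraries, unlike *Myf5*, which precedes it.

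The differentiation genes were well counted in both libraries, apart from *Myf6*. *Myog* (chromosome 1, 134290004 to 134292548) was read 3526 times in chondrocytes and 1728 times in dermal fibroblasts, or 197 and 93.9 CPM. Its 2.10-fold difference has an interval from 1.98 to 2.22, which spans the 2-fold threshold, and with total counts as the scaling it was 1.91-fold, leaving 6 genes over 2-fold. *Tmem8c* (chromosome 2, 27061636 to 27072161), whose membrane protein is needed for myoblast fusion, had 1190 and 1028 counts, or 66.4 and 55.8 CPM, a fold of 1.19 (interval 1.09 to 1.29). *Chrna1* (chromosome 2, 73563281 to 73580338), the alpha subunit of the muscle acetylcholine receptor, had 2279 and 567 counts, 127 and 30.8 CPM, and was 4.13-fold higher in chondrocytes (interval 3.76 to 4.53). The differentiation genes did not share a fold, since *Chrna1* lay near *Myod1*, and *Tmem8c* lay near equality. The span of *Chrna1* overlaps that of the predicted gene *Gm30940*.

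**Figure D2:**
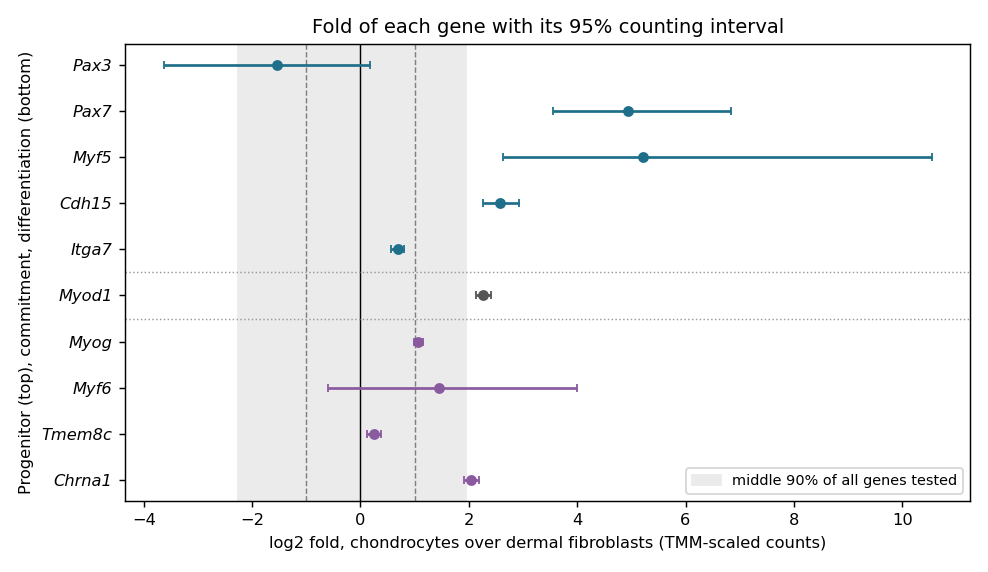
Log2 fold of each gene, chondrocytes over dermal fibroblasts, with its 95% counting interval, for 1 library per cell type. Dashed lines mark 2-fold and the grey band the middle 90% of all 14730 genes tested, which runs from -2.26 to 1.95. *Pax7*, *Myf5*, *Cdh15*, *Myod1* and *Chrna1* lie above the band, and the other 5 genes lie within it.

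By stage, the median log2 fold was 2.58 over the 5 progenitor and satellite cell genes, 2.27 for *Myod1* and 1.26 over the 4 differentiation genes. The ranges of the stages overlapped, since the progenitor genes ran from -1.55 (*Pax3*) to 4.95 (*Pax7*) with counts under 3 set to 3, and the differentiation genes from 0.25 (*Tmem8c*) to 2.05 (*Chrna1*).

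The stages were also compared within each library, by setting the counts of a gene against those of *Myog*, a ratio in which the scaling between libraries cancels. Per 100 *Myog* counts there were 3.40 *Pax7* counts in chondrocytes (interval 2.81 to 4.08) and 0.231 in dermal fibroblasts (0.0630 to 0.594). The ratio of these ratios was 14.7 (conditional exact interval 5.58 to 54.9). For *Myf5* there were 1.02 and 0.0579 counts per 100 *Myog* counts, and for *Cdh15* 15.4 and 5.38, so that *Cdh15* relative to *Myog* was 2.86 times as high in chondrocytes (interval 2.27 to 3.63). Relative to *Myog*, these 3 progenitor genes were each higher in chondrocytes. For *Myod1* there were 66.0 and 28.7, a ratio of 2.30 (interval 2.05 to 2.58).

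Other genes went the opposite way. *Itga7* had 40.9 counts per 100 *Myog* counts in chondrocytes and 53.2 in dermal fibroblasts, 1.30 times as many in the latter (interval 1.17 to 1.44). *Tmem8c* had 33.7 and 59.5, 1.76 times as many in dermal fibroblasts (interval 1.59 to 1.95), and *Pax3* had 0.113 and 0.694, 6.12 times as many (interval 1.85 to 26.1). *Chrna1* had 64.6 and 32.8, 1.97 times as many in chondrocytes (interval 1.77 to 2.2). *Myog* relative to *Tmem8c* and *Chrna1* thus differed in opposite directions, and the smaller ratios moved with the reference gene. With *Chrna1* as the reference, *Myod1* was 1.17 and *Cdh15* 1.45 times as high in chondrocytes, while *Pax7* was 7.46 and *Myf5* 8.96 times as high.

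**Figure D3:**
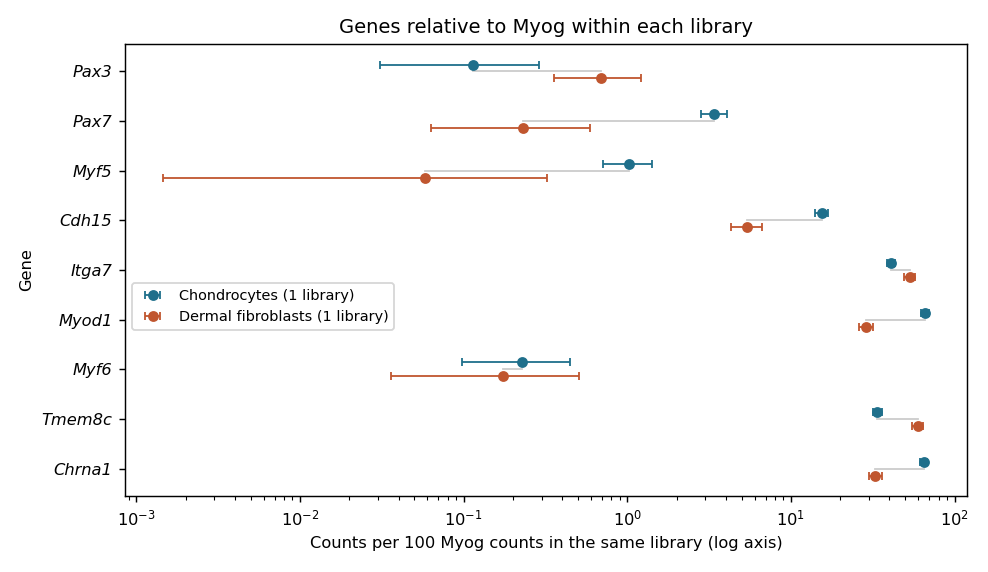
Counts of each gene per 100 *Myog* counts in the same library, on a log axis with 95% Clopper-Pearson counting intervals, 1 library per cell type. *Pax7*, *Myf5*, *Cdh15*, *Myod1* and *Chrna1* have their chondrocyte point to the right, *Pax3*, *Itga7* and *Tmem8c* their dermal fibroblast point, and the intervals of *Myf6* overlap.

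The 10 genes were also set against the summed contraction genes, a reference chosen after the data were seen. These 29 genes held 49774 counts in chondrocytes and 37554 in dermal fibroblasts. Per 100 of them *Pax7* had 0.241 counts in the former and 0.0107 in the latter, a ratio of 22.6 (interval 8.61 to 84.4). *Myod1* was 3.54 times (interval 3.21 to 3.91) and *Myog* 1.54 times (1.45 to 1.63) as high in chondrocytes on this scale, while *Tmem8c* was 0.873 times as high (0.802 to 0.951). *Itga7* was 1.18 times (1.09 to 1.29), *Pax3* 0.251 times (0.0591 to 0.830) and *Myf6* 2.01 times as high, with an interval for *Myf6* from 0.483 to 11.8. *Cdh15* was 4.41 times (3.53 to 5.55), *Chrna1* 3.03 times (2.76 to 3.33) and *Myf5* 27.2 times (4.57 to 1102) as high. Relative to the summed contraction genes, *Tmem8c* and *Pax3* were thus lower in chondrocytes, and the other genes apart from *Myf6* were higher.

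Levels of different genes were compared per length, as FPKM from the exon lengths of GENCODE vM1. In chondrocytes *Myog* was highest at 133 FPKM, followed by *Myod1* at 70.1, *Tmem8c* at 43.9, *Chrna1* at 29.0, *Itga7* at 18.9 and *Cdh15* at 9.32. *Pax7* at 1.14, *Myf5* at 0.964, *Myf6* at 0.358 and *Pax3* at 0.0361 came last, and the counting intervals of *Pax7* and *Myf5*, and of *Myf5* and *Myf6*, overlapped. In dermal fibroblasts *Myog* was again highest, at 63.5 FPKM, and *Tmem8c* came before *Myod1*, at 37.0 against 14.5. *Itga7* at 11.7, *Chrna1* at 7.02 and *Cdh15* at 1.55 followed. *Myf6*, *Pax3*, *Pax7* and *Myf5* all lay at or below 0.131 FPKM there, and their counting intervals overlapped. The differentiation factor was thus more abundant than the progenitor factors in both libraries. Among 13528 genes with a length, *Myog* exceeded 97.6% in chondrocytes and 94.3% in dermal fibroblasts, and *Pax7* exceeded 23.9% and 1.38%.

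The 4 bHLH factors held 5898 counts in chondrocytes and 2228 in dermal fibroblasts. *Myog* took 59.8% of them in chondrocytes (exact interval 58.5% to 61.0%) and 77.6% in dermal fibroblasts (75.8% to 79.3%), and *Myod1* took 39.5% (38.2% to 40.7%) and 22.3% (20.5% to 24.0%). *Myf5* took 0.610% and 0.0449%, and *Myf6* 0.136% and 0.135%. *Myog* thus took the larger share in both libraries, and its share was higher in dermal fibroblasts by more than counting error.

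The subunits that join CHRNA1 in the receptor were compared in the same way. In fetal and newborn muscle the receptor contains the gamma subunit (*Chrng*), which the epsilon subunit (*Chrne*) replaces after birth. *Chrng* was read 752 times in chondrocytes and 423 times in dermal fibroblasts, and *Chrne* had 4 and 0. Of the counts of all 5 subunits, *Chrne* took 0.103% in chondrocytes (exact interval 0.0281% to 0.264%) and 0 of 1331 in dermal fibroblasts, which, taken as 3 counts, allows a share of up to 0.225% (exact upper limit 0.277%). *Chrng* took 19.4% in chondrocytes (18.1% to 20.6%) and 31.8% in dermal fibroblasts (29.3% to 34.4%), and *Chrna1* took 58.7% (57.1% to 60.2%) and 42.6% (39.9% to 45.3%). The fetal form was read in both libraries, and *Chrna1* took a larger share in chondrocytes than in dermal fibroblasts. These shares are of counts and are not corrected for gene length. Per length, *Chrna1* had 29.0 FPKM and *Chrng* 21.8 FPKM in chondrocytes. In dermal fibroblasts *Chrng* was the higher of these genes, at 12.0 FPKM against 7.02 for *Chrna1*. *Chrnb1*, *Chrnd* and *Chrne* were singled out after their values were seen. *Chrnb1* had 374 and 178 counts and *Chrnd* 474 and 163, and *Chrnd* took 12.2% in each library.

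**Figure D4:**
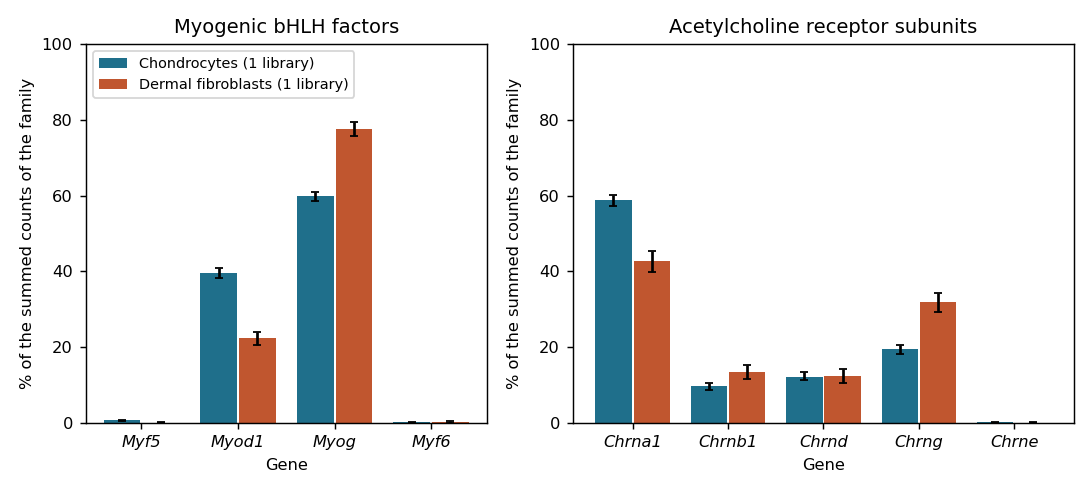
Share of each gene in the summed counts of the 4 myogenic bHLH factors (left) and of the 5 muscle acetylcholine receptor subunits (right), in percent and with exact binomial intervals, 1 library per cell type. *Myog* takes 59.8% in chondrocytes and 77.6% in dermal fibroblasts on the left. On the right *Chrng* takes 19.4% and 31.8%, and *Chrne* is near 0 in both. Shares are of counts, not corrected for gene length.

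The rest of the muscle pathway was read from lists of genes with known roles. Beside them stand the 12.0% and 16.2% of all genes that were over 2-fold higher in chondrocytes and in dermal fibroblasts. Those shares are over genes with at least 10 counts in total, while some lists also hold genes with fewer. Of 25 other satellite cell and muscle progenitor genes, 12 were over 2-fold higher in chondrocytes and 4 in dermal fibroblasts, with a median log2 fold of 0.98. The receptor *Fgfr4*, found on myoblasts, had 702 and 68 counts and was 10.6-fold higher (interval 8.26 to 13.8). The satellite cell proteoglycans *Sdc4* and *Sdc3* were 6.48-fold and 2.29-fold higher, and the imprinted gene *Peg3*, with 32638 counts against 3479, was 9.64-fold higher. Among the 4 that were over 2-fold higher in dermal fibroblasts, *Cd34* had 149 and 612 counts and *Heyl* 82 and 381. Both are named after their values were seen. Several of these genes are widely expressed outside muscle, so the list does not speak of muscle cells alone. *Calcr*, a marker of quiescent satellite cells named after its value was seen, had 0 counts in both libraries.

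Partners of the bHLH factors differed little. Of 12, 1 was over 2-fold higher in each direction and the median log2 fold was 0.13. The E proteins *Tcf4* and *Tcf12* had folds of 1.01 and 0.831, and the surface co-receptor *Cdon* 1.25. The muscle methyltransferase gene *Smyd1*, with 587 and 222 counts, was 2.72-fold higher in chondrocytes, and the acetyltransferase gene *Kat2b* was 2.16-fold higher in dermal fibroblasts.

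Inhibitors of the bHLH factors were divided, with 4 of 12 over 2-fold higher in chondrocytes and 3 in dermal fibroblasts (median log2 fold 0.29). *Id1* and *Id3*, whose proteins bind E proteins without binding DNA, were 6.16-fold (1918 against 320 counts) and 3.95-fold higher in chondrocytes. *Twist2* was 11.6-fold higher in dermal fibroblasts (114 against 1357 counts), and *Snai1* had a fold of 1.28. Of 6 cell cycle exit genes, 1 was over 2-fold higher in chondrocytes and 0 in dermal fibroblasts (median 0.26). It was *Cdkn1c* at 2.44-fold, while *Cdkn1a* had a fold of 1.23, *Ccnd3* 1.83 and *Cdkn1b* 0.790.

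Fusion genes other than *Tmem8c* were spread to both sides of equality. Of 15, 2 were over 2-fold higher in each direction, and the median log2 fold was 0.04, the value of genes such as *Nphs1* that had under 3 counts in both libraries. Of those over 2-fold in chondrocytes, named after their values were seen, *Adgrb1* had 19 counts against 1 and *Stab2* 9 against 4. *Gm7325*, the gene of the second muscle fusion protein, myomixer, had 144 and 97 counts, a fold of 1.52 (interval 1.17 to 1.99). The more widely expressed *Kirrel*, *Myof* and *Dock1* had folds of 0.914, 0.497 and 0.541, and *Dock5* was 3.81-fold higher in dermal fibroblasts.

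Of 11 other acetylcholine receptor and neuromuscular junction genes, 6 were over 2-fold higher in chondrocytes and 0 in dermal fibroblasts (median log2 fold 1.11). *Lrp4*, the agrin receptor, was 5.61-fold higher (2134 against 391 counts), *Chrng* had a fold of 1.83 and *Agrn* 1.16. Of 15 laminin receptor and dystrophin complex genes, 4 were over 2-fold higher in chondrocytes and 5 in dermal fibroblasts (median -0.62). *Itgb1*, the beta partner of *Itga7*, had a fold of 0.618, and the laminin genes *Lama2*, *Lamb1* and *Lamc1* were 6.58-fold, 4.81-fold and 3.74-fold higher in dermal fibroblasts. *Sgcd*, a sarcoglycan gene, was 3.87-fold higher in chondrocytes. Contraction genes had 10 of 29 over 2-fold higher in chondrocytes and 0 in dermal fibroblasts (median 0.50), from *Ckm* at 0.700 to *Myh7* at 5.84, with the embryonic myosin gene *Myh3* at 1.23 and the actin genes *Acta1* and *Actc1* at 1.37 and 0.939.

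**Figure D5:**
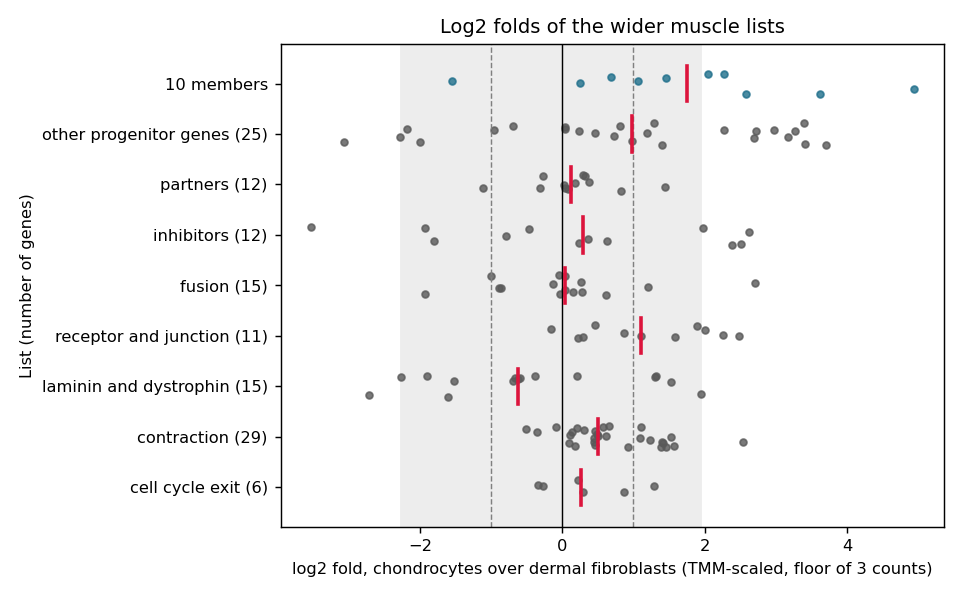
Log2 fold of each gene, chondrocytes over dermal fibroblasts, by list, with counts under 3 set to 3, the list median as a red bar, the middle 90% of all genes tested as a grey band and 2-fold as dashed lines. The medians of the 10 genes (1.75), the receptor and junction genes (1.11) and the other progenitor genes (0.98) are the highest, and that of the laminin and dystrophin genes (-0.62) is the lowest.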

How the data were processed

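The authors sequenced stranded mRNA libraries of both cell types, 1 library each, with 75 bp reads from a single end. Per the labels and the study's methods, reads were mapped to mm10 with TopHat2 2.0.13, Bowtie2 2.2.3 and SAMtools 0.1.19 after base calling with CASAVA 1.8.2. The authors deposited raw read counts per gene symbol. The counting program, its annotation and its strand setting are not given in the sources used here, so reads of overlapping genes may have been shared between *Pax7*, *Itga7* or *Chrna1* and their neighbours. In 27 rows the symbol reads as a date, and these rows were kept in the totals.

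Counts were scaled with edgeR 4.0.16 TMM factors (R 4.3.3). Counts under 3 were set to 3 before a gene was counted as over 2-fold or entered a median, and printed folds of genes with at least 1 count in each library use the counts as they are. Intervals are at the 95% level, computed with scipy 1.17.1 in Python 3.11.15, and cover counting error only. FPKM used GENCODE vM1 exon lengths, available for 91.8% of genes that reached 10 counts in total. The fold calculation was tested on simulated counts. The alternatives for scaling were total counts, DESeq2 1.42.0 factors, the upper quartile and *Actb*. Others were a floor of 1 or of 10 counts, adding a pseudocount of 1, a fold over 4 and the interval's lower bound over 2. Other reference genes, the longest transcript and list medians over genes with at least 10 counts were also used.

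The genes and lists were chosen with earlier results of these data known. Named were the 10 genes and, from each list, the 3 genes with the most counts and the highest and lowest folds among genes with at least 100 counts in a library, except for cell type markers, which are given as sums and genes at or near 0. A gene that this rule named in the list of other progenitor genes is not reported here. *Bai1* and *Bai3* of the fusion list were matched through RefSeq synonyms. Gene positions and windows are those of RefSeq for GRCm38.p6.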

Additional observations from a re-analysis of the deposited data

How the results depend on the processing

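No paired analysis was possible because there was only 1 library of chondrocytes and 1 of dermal fibroblasts, and for the same reason no library could be left out. Of the 10 genes, the number above 2-fold in chondrocytes was 6 with total counts or a floor of 10 counts. It was 5 with a fold over 4 or the interval's lower bound over 2, and 7 under the remaining alternatives. All 9 lay within 1.5 times of 7, a wide tolerance that a count of 5 still meets. The 1 gene over 2-fold higher in dermal fibroblasts, *Pax3*, was lost with a floor of 10 counts, a fold over 4 or a threshold of 2 on the interval's bound, each of which gave 0 and each of which is stricter by construction. Of 70 single folds, 62 stayed inside the counting interval of the value reported. This tally depends on the width of each interval, which is wide for genes with few counts, so it does not measure stability. *Myf6* at 1.03 with a floor of 10 counts was inside its interval, and *Tmem8c* at 1.08 with total counts was outside. A floor of 10 counts lowered the fold of *Pax7* from 30.8 to 12.3, of *Myf5* from 12.3 (floor of 3) to 3.70 and of *Myf6* from 2.74 to 1.03, under the 2-fold threshold, and brought *Pax3* to 0.856, since these genes had under 10 counts in one or both libraries. Total counts moved all log2 folds by -0.14. They gave list medians of 0.85 for the other satellite cell genes, -0.0082 for the partners and -0.75 for the laminin and dystrophin genes. The median was 0.37 for the contraction genes and 0.12 for cell cycle exit, and *Actb* gave 0.38 for the last. Over genes with at least 10 counts, the median was 1.24 for the other satellite cell genes and 1.34 for the receptor and junction genes. It was 0.18 for the partners and -0.04 for the fusion genes.

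With *Chrna1* in place of *Myog*, the ratio of ratios was 1.45 for *Cdh15*, 0.390 for *Itga7* and 1.17 for *Myod1*. With the summed contraction genes, a reference added after the data were seen, it was 4.41 for *Cdh15*, 1.18 for *Itga7* and 3.54 for *Myod1*, so *Itga7* changed direction with the reference. The cause was not tested. With the longest transcript as the length, *Pax3* was in place 7 and *Myf6* in place 8 of 10 in dermal fibroblasts. Depth limits *Pax3*, *Myf5* and *Myf6*.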

Other observations

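The genes *Six4*, *Eya1*, *Eya2*, *Meox1* and *Meox2*, which act upstream of the bHLH factors in the somite and are also used in other mesenchyme, were higher in the chondrocyte library. They were picked from the 25 other progenitor genes after their values were seen, so nothing is read from their common direction. Of that list, 12 genes were over 2-fold higher in chondrocytes and 4 in dermal fibroblasts. The folds are given as values. *Six4* was read 187 times in chondrocytes and 29 times in dermal fibroblasts (6.62-fold), *Eya1* 145 and 19 (7.84-fold), *Eya2* 44 and 5 (9.04-fold), *Meox1* 72 and 7 (10.6-fold) and *Meox2* 235 and 99 (2.44-fold). *Lbx1*, a factor of migrating limb muscle progenitors, had 2 and 15 counts. In the same list *Msc* had 3 and 1 counts and *Tcf21* 4 and 0.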
